A study of Mus musculus with 4 samples.

Results

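The bone morphogenetic protein (BMP) pathway and its Id target genes were followed in mouse embryonic epidermis after loss of H3K9 methyltransferases. The members were chosen by name and comprised 10 of the 56980 genes listed for each library: the targets Id1, Id2 and Id3, the ligands Bmp2, Bmp4 and Bmp7, the receptors Bmpr1a and Bmpr1b, and the inhibitory Smads Smad6 and Smad7. Single-cell RNA sequencing was available for 4 libraries of E16.5 dorsal skin, 2 Ctrl and 2 TKO, each from 1 embryo per the methods of the study, sorted for Epcam and α6 integrin, surface proteins of epithelial and of basement membrane-attached cells. All embryos carried floxed Suv39h1, floxed Setdb1 and a germline deletion of Suv39h2, and all were exposed to tamoxifen, so the controls shared the Suv39h2 deletion. TKO embryos carried in addition K14CreERT2, a Cre recombinase that tamoxifen activates and that the keratin 14 promoter expresses in basal keratinocytes, and the study describes its knockout as mosaic. The litter list of the study gives an earlier embryonic day for its single-cell litter than the labels, and the labels were followed.

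BMPs are secreted ligands that bind type I receptors such as Bmpr1a and Bmpr1b together with type II receptors. The active receptors phosphorylate Smad1, Smad5 and Smad9, which enter the nucleus with Smad4 and switch on targets, among them the Id genes. Id proteins bind E proteins and block their contact with DNA, whereas Smad6 and Smad7 are induced by the pathway and hold it back. In developing skin, BMP signalling restrains hair placode formation and takes part in keratinocyte differentiation.

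The libraries held 3804 to 5785 cell barcodes and 70749496 to 89655247 unique molecular identifiers (UMIs). Cells were grouped by expression with the 10 members, and all genes that differed between genotypes over all keratinocytes, left out of the grouping. The labels name basal epithelial cells, and 4744 of 9181 keratinocytes were basal-like by Krt5, Krt14, Krt15 and related markers. A further 2139 were suprabasal-like, led by Krt1 and Krt10 except in cluster 5, and 2085 were hair follicle-like. The hair follicle-like clusters were led by Lhx2, Shh, Dkk4 or Edar, except cluster 1 (306 cells), led by Zfpm2, Plcl1 and Pthlh. Basal markers scored higher in cluster 1 (0.496) than hair follicle markers (0.417). A Merkel-like cluster (34 and 25 Ctrl and 39 and 21 TKO cells) was left out of the class sums. So was an unnamed keratinocyte cluster, with 1 and 2 Ctrl and 51 and 40 TKO cells. UMIs were summed per class and library and are given as CPM, UMIs scaled to 1000000 UMIs of that class and library. Class sums ranged from 8487824 to 31867578 UMIs, and the median cell was deeper in TKO than in Ctrl in every class, with 28126 and 30730 against 17477 and 21057 UMIs in basal-like cells. Fewer expressing cells and less RNA per cell cannot be told apart in these sums. Setdb1 in basal-like cells measured 72.0 and 59.0 CPM in Ctrl and 40.2 and 44.1 CPM in TKO (adjusted p = 0.0294, edgeR), whereas for Suv39h1 the Ctrl values were 31.5 and 29.7 and the TKO values 29.0 and 24.3 CPM. Reads from the 3′ end need not cover the floxed parts, so these levels are no measure of recombination. Suv39h2, although labelled as deleted in all embryos, still gave 16.9 and 19.5 CPM in Ctrl and 25.0 and 18.6 CPM in TKO, and whether these reads lie outside the deleted part was not tested.

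In basal-like cells, 3 of the 10 members passed the test, Id1 being raised and Bmp4 and Bmp7 lowered in TKO. Bmp4 alone passed in hair follicle-like cells, where it was lowered, and none passed among suprabasal-like sums. Changes were tested with edgeR's quasi-likelihood test on the class sums, with Benjamini-Hochberg adjustment over all genes tested and a threshold of 0.05. Among all 17345 genes tested in basal-like cells, 8.65% were raised and 4.89% lowered, against 1 raised and 2 lowered of the 10 members. Among 15773 genes in hair follicle-like cells 3.79% were raised and 3.84% lowered, against 0 and 1 of 10. Among 14596 genes in suprabasal-like cells 1.34% were raised and 0.576% lowered. The count of 0 members called in suprabasal-like cells by edgeR compares with 3 members at an unadjusted p under 0.05, as 17.7% of all genes were, and with 1 member, Bmpr1b, called by DESeq2, as were 4.33% of the 17053 genes with an adjusted p from that tool. The median log2 change of the members was -0.23 in basal-like, -0.51 in suprabasal-like and -0.03 in hair follicle-like cells, beside medians over all genes of -0.02, 0.00 and -0.02. TKO and Ctrl libraries did not overlap for 6 of the 10 members in basal-like, 3 in suprabasal-like and 5 in hair follicle-like cells, beside 59.6%, 50.7% and 56% of all genes tested, so these counts lie near or under the background. Filled points in the plot of log2 changes mark the 4 calls.

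**Figure D1:**
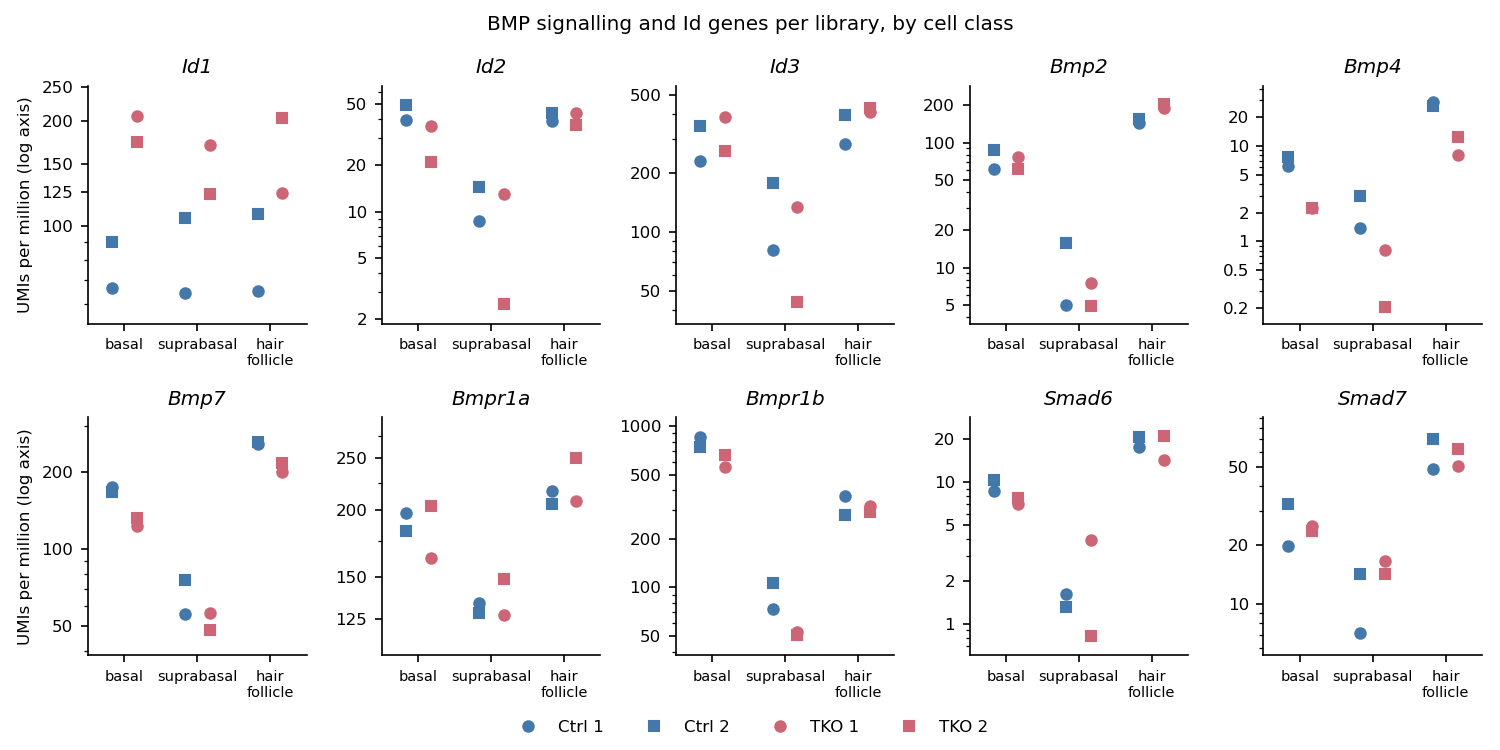
CPM of each member (log axis) in basal-like, suprabasal-like and hair follicle-like cells, 1 point per library, Ctrl in blue and TKO in red, circles for replicate 1 and squares for replicate 2. Id1 lay higher in both TKO libraries than in both Ctrl libraries in every class, and Bmp4 lay lower.

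Id1 encodes a dominant-negative partner of E proteins and is a direct target of BMP-activated Smads; its gene lies at chr2:152566218-152579544 on the plus strand of GRCm39. In basal-like cells Id1 measured 66.7 and 89.9 CPM in the Ctrl libraries and 206 and 173 CPM in the TKO libraries. Both TKO values lay above both Ctrl values. The mean was 78.3 ± 16.4 against 190 ± 23.0 CPM (SD, n = 2 each, Ctrl first), a log2 fold change of 1.28 with an SE of 0.16 (adjusted p = 0.00696, edgeR). All 16 alternative settings kept this call. Leaving out each library in turn moved the log2 change between 1.08 and 1.52.

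Id1 was also higher in both TKO libraries in the other classes, without passing the test. Its hair follicle-like values were 65.0 and 108 CPM in Ctrl and 124 and 204 CPM in TKO, a log2 fold change of 0.95 with an SE of 0.30 (adjusted p = 0.107, edgeR). In suprabasal-like cells the values were 64.2 and 105 CPM in Ctrl and 170 and 124 CPM in TKO, a log2 fold change of 0.73 with an SE of 0.25 (adjusted p = 0.225, edgeR). With each library left out in turn, the suprabasal-like change lay between 0.42 and 1.08 and the hair follicle-like change between 0.54 and 1.35.

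Id2, at chr12:25143798-25147282 on the minus strand, encodes a relative of Id1 that also binds E proteins. Its basal-like values were 39.0 and 48.9 CPM in Ctrl and 35.9 and 21.1 CPM in TKO, so TKO lay below Ctrl, and the log2 change of -0.62 (SE 0.24) did not pass (edgeR adjusted p = 0.139). Leaving out each library in turn moved this change between -1.02 and -0.30. The change passed without the stress-led clusters described below, at -0.76 (edgeR adjusted p = 0.0409). Id2 overlapped between genotypes in suprabasal-like cells, at 8.64 and 14.5 CPM in Ctrl and 13.1 and 2.51 CPM in TKO. It overlapped likewise in hair follicle-like cells, where all libraries lay between 36.5 and 43.5 CPM.

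Id3, at chr4:135870808-135873066 on the plus strand, encodes the third Id protein followed here. In basal-like cells it measured 230 and 346 CPM in Ctrl and 386 and 259 CPM in TKO, which overlapped (log2 change 0.17, SE 0.24, edgeR adjusted p = 0.689). Both TKO values in hair follicle-like cells, 410 and 432 CPM, lay above the Ctrl values of 280 and 395 CPM, with a log2 change of 0.34 that did not pass (edgeR adjusted p = 0.254). In suprabasal-like cells the libraries ran from 43.7 CPM in TKO replicate 2 to 179 CPM in Ctrl replicate 2 with the other two in between. Of the 3 Id genes only Id1 was called in basal-like cells. The basal-like change of Id3 ran from -0.11 to 0.50 with 1 library left out, so its sign was not stable.

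Among the ligands, Bmp4 was lower in both TKO libraries than in both Ctrl libraries in all 3 classes. Bmp4, at chr14:46620250-46636745 on the minus strand, encodes a ligand made by both epithelial and mesenchymal cells of the skin. Its values in hair follicle-like cells were 28.9 and 26.2 CPM in Ctrl (425 and 381 UMIs) and 8.01 and 12.4 CPM in TKO (68 and 132 UMIs). The mean fell from 27.5 ± 1.85 to 10.2 ± 3.10 CPM (SD, n = 2 each), a log2 fold change of -1.40 with an SE of 0.22 (adjusted p = 0.0151, edgeR). Every TKO value was under every Ctrl value. The adjusted p moved past the threshold without Ctrl replicate 2, to 0.0502, and without TKO replicate 2, to 0.0573, with log2 changes of -1.48 and -1.76, and with no expression filter, to 0.0556, with a log2 change of -1.40.

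In basal-like cells Bmp4 was sparse, with 183 and 226 UMIs in Ctrl and 72 and 61 UMIs in TKO, or 6.19, 7.69, 2.26 and 2.27 CPM. The log2 change was -1.61 with an SE of 0.23 (edgeR adjusted p = 0.00963), and it lay between -1.76 and -1.43 with each library left out. After thinning each cell to 5000 UMIs the log2 change was -1.32 and no longer passed (edgeR adjusted p = 0.0715). In suprabasal-like cells the counts were 32 and 39 UMIs in Ctrl and 7 and 3 UMIs in TKO. The fitted log2 change there, -2.28 with an SE of 0.73, did not pass (edgeR adjusted p = 0.193) and rests on few UMIs.

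The window before the Bmp4 start is shown because Bmp4 was the member called in 2 classes. RefSeq entries for such windows matched 6 of the 10 members on build GRCm38.p6: Id2, Id3, Bmp4, Bmpr1a, Bmpr1b and Smad6. Of the 250 bases before each start, only those of Bmp4 lay clear of every exon of a protein-coding gene; they overlap an exon of the antisense RNA gene Gm63461. It lies at chr14:46390670-46390919 of GRCm38.p6, on the minus strand, and is printed 5′ to 3′ with every match to CANNTG, the E-box to which E proteins bind, in capitals.
Bmp4: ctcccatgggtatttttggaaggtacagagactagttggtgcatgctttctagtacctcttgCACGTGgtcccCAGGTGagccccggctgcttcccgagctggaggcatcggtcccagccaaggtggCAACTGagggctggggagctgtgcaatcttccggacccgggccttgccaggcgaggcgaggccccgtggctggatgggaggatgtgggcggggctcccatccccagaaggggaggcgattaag
The window held 3 matches to CANNTG, which reads the same on both strands as a pattern and was found in 66.2% of 32851 such windows. It held no match to GGCGCC, present in 9.59% of windows, or to CAGAC on either strand, present in 42.2%; both are sequences to which Smad proteins can bind. A match is a description of letters, and no binding was measured.

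Bmp7, at chr2:172709805-172782410 on the minus strand, encodes a ligand that is abundant in epithelia. In basal-like cells it measured 175 and 167 CPM in Ctrl and 123 and 131 CPM in TKO, a mean of 171 ± 5.59 against 127 ± 6.08 CPM (SD, n = 2 each). The difference was small but exceeded the spread of the replicates, with a log2 change of -0.41 and an SE of 0.10 (edgeR adjusted p = 0.0458). The call held in 9 of 16 alternative settings, the adjusted p being 0.229 without Ctrl replicate 1, 0.16 without Ctrl replicate 2 and 0.126 without TKO replicate 1. Gm40010 overlaps Bmp7 on the same strand, so reads could be split between them. Bmp7 was also lower in both TKO libraries of hair follicle-like cells, at 199 and 216 against 257 and 260 CPM, where the log2 change of -0.29 did not pass (edgeR adjusted p = 0.139). In suprabasal-like cells the groups overlapped between 48.2 and 75.7 CPM.

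Bmp2, at chr2:133394079-133404816 on the plus strand, encodes a ligand close in sequence to Bmp4 and did not follow it. Bmp2 in hair follicle-like cells measured 144 and 155 CPM in Ctrl and 188 and 205 CPM in TKO. TKO lay above Ctrl in both libraries, with a log2 change of 0.42 and an SE of 0.11 that missed the threshold (edgeR adjusted p = 0.0617) and was called by DESeq2 (adjusted p = 0.0432). Within clusters Bmp2 was higher in both TKO libraries in 2 of 4, clusters 2 and 3, and overlapped in clusters 1 and 4. Cluster 1, where Bmp2 was low at 10.3 and 46.0 CPM in Ctrl, held 111 of 618 and 145 of 793 Ctrl cells and 24 of 272 and 26 of 402 TKO cells. Cluster 3, where Bmp2 was high at 291 and 291 CPM in Ctrl and 298 and 351 CPM in TKO, comprised 104 and 158 cells of the Ctrl libraries against 71 and 103 of the TKO libraries. The part of these shares in the class difference was not tested. In basal-like cells Bmp2 overlapped between genotypes, from 61.8 to 87.6 CPM. In suprabasal-like cells it was low, from 4.96 to 15.6 CPM, and also overlapped.

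Neither receptor was called in any class by edgeR. Bmpr1a, at chr14:34132687-34225379 on the minus strand, encodes the type I receptor needed for hair differentiation. Its basal-like values were 197 and 183 CPM in Ctrl and 163 and 204 CPM in TKO, and its log2 changes were -0.04 in basal-like, 0.01 in suprabasal-like and 0.14 in hair follicle-like cells, with SEs of 0.13 to 0.14. Bmpr1b, at chr3:141542897-141875323 on the minus strand, encodes the other type I receptor of this pair. It lay at 852 and 739 CPM in Ctrl and 554 and 657 CPM in TKO in basal-like cells, with TKO under Ctrl and a log2 fold change of -0.38 with an SE of 0.14 (adjusted p = 0.119, edgeR).

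In suprabasal-like cells Bmpr1b measured 74.1 and 106 CPM in Ctrl and 52.9 and 50.5 CPM in TKO. The log2 change of -0.86 (SE 0.18) did not pass (edgeR adjusted p = 0.0854), but was called by DESeq2 (adjusted p = 0.0043). With each library left out in turn it lay between -1.10 and -0.63. All hair follicle-like libraries lay between 282 and 369 CPM and the groups overlapped. The summed CPM of 8 suprabasal markers was itself lower in TKO within this class, at 21958 and 35062 against 47276 and 41402. The part of that shift in the suprabasal values of the members was not tested.

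Smad6 and Smad7, the inhibitory Smads, were not called in any class. Smad6, at chr9:63860341-63929793 on the minus strand, preferentially limits BMP receptors and measured 8.69 and 10.3 CPM in Ctrl and 7.0 and 7.76 CPM in TKO in basal-like cells. TKO lay under Ctrl, with a log2 fold change of -0.35 with an SE of 0.19 (adjusted p = 0.255, edgeR). Smad7, at chr18:75500374-75529006 on the plus strand, limits both BMP and TGF-β receptors. Its basal-like values were 19.8 and 32.5 CPM in Ctrl and 25.0 and 23.8 CPM in TKO and overlapped. Both genes overlapped in hair follicle-like cells between genotypes, from 14.3 to 21.1 CPM for Smad6 and from 49.2 to 69.8 CPM for Smad7. These negative-feedback genes therefore showed no called change where Id1 was raised.

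**Figure D2:**
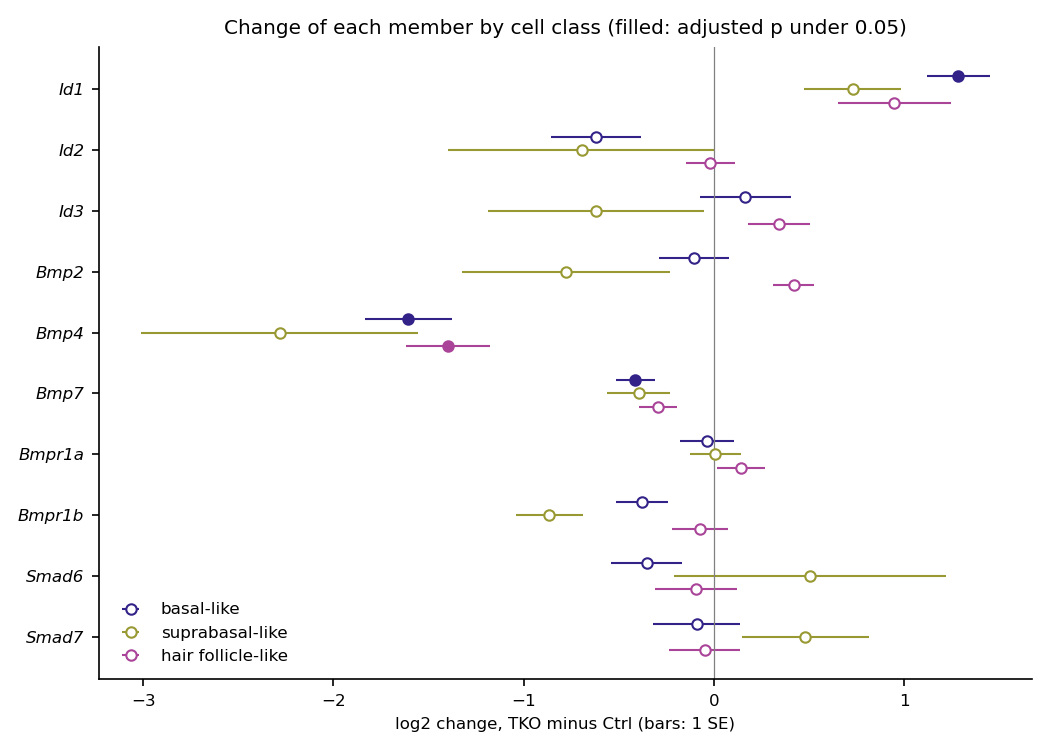
Log2 change of each member, TKO minus Ctrl, in the 3 classes, with bars of 1 SE, each from 2 Ctrl and 2 TKO libraries. Filled points passed the test: Id1, Bmp4 and Bmp7 in basal-like cells and Bmp4 in hair follicle-like cells.

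Whether the genotype effect differed between classes was asked in a fit over all 12 sums, with library and class as terms. No member passed in either contrast by edgeR or by DESeq2, while 2.84% of genes passed for suprabasal-like and 0.493% for hair follicle-like against basal-like cells. At an unadjusted p under 0.05 the counts were 1 of 10 members, Smad7, in the first contrast and 0 in the second, beside 18.3% and 11.2% of all genes. The effect on Id1 differed by -0.58 (SE 0.30) between suprabasal-like and basal-like cells (edgeR adjusted p = 0.352) and by -0.33 (SE 0.30) between hair follicle-like and basal-like cells (edgeR adjusted p = 0.759). Without TKO replicate 2 the latter was -0.85 and passed, at an edgeR adjusted p of 0.0434. For Smad7 the difference was 0.54 (SE 0.20) in suprabasal-like against basal-like cells (edgeR adjusted p = 0.192). For Bmp4 the differences were -0.76 (SE 0.73) and 0.16 (SE 0.40), with edgeR adjusted p-values of 0.664 and 0.937. The calls in basal-like cells are therefore not shown to be larger than the changes in the other classes.

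Within the classes the members were read in 17 clusters, as a description. The clusters of a class come from the same 4 libraries, so they are not replicates. The share of all genes without overlap was not counted by cluster. In whole classes it was 59.6% (basal-like), 50.7% (suprabasal-like) and 56% (hair follicle-like). Id1 was higher in both TKO libraries than in both Ctrl libraries in 8 of 8 basal-like clusters, 3 of 5 suprabasal-like clusters and 3 of 4 hair follicle-like clusters. Clusters 15 and 16 of the basal-like class were led by Cxcl10, Atf3 and Zfp36, genes of a stress or immediate early response, and are called stress-led here. Among the basal-like clusters Id1 was highest there, at 173 and 155 CPM in Ctrl and 394 and 406 CPM in TKO in cluster 15. In cluster 0, led by Macrod2os1, Pcsk2 and Bmpr1b, Id1 measured 48.6 and 35.3 CPM in Ctrl and 134 and 137 CPM in TKO. Id1 thus differed by genotype in clusters with high and with low Id1. Cluster 9, led by the mitotic genes Ube2c, Cenpf and Top2a, held 48.7 and 43.1 CPM in Ctrl and 109 and 122 CPM in TKO. In the unnamed keratinocyte cluster, outside the classes, Id1 measured 107 and 63.6 CPM in TKO, and Ctrl held too few cells to compare.

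The summed CPM of 12 immediate early and dissociation genes did not order the libraries by genotype in basal-like cells, at 2696 and 7247 in Ctrl and 4021 and 1906 in TKO. Without both stress-led clusters, an alternative chosen after seeing the data, the basal-like log2 changes were 1.40 for Id1, -1.76 for Bmp4 and -0.46 for Bmp7, and all 3 passed. Genes of S phase and of mitosis did move with genotype, the 8 mitotic genes summing to 1280 and 1231 CPM in Ctrl and 1744 and 1665 CPM in TKO in basal-like cells. In suprabasal-like cells the mitotic genes summed to 364 and 484 CPM in Ctrl and 1036 and 583 CPM in TKO, and the S phase genes overlapped. Their part in the Id1 difference was not tested.

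Bmp4 was concentrated in hair follicle-like cluster 3, led by Lhx2, Tll1 and Shh, Shh being the ligand of the hair placode. There it measured 81.7 and 67.9 CPM in Ctrl and 11.7 and 26.6 CPM in TKO. In the other hair follicle-like clusters the Ctrl values ran from 1.54 to 21.5 CPM. Both TKO libraries lay under both Ctrl libraries in 7 of 8 basal-like, 3 of 5 suprabasal-like and 3 of 4 hair follicle-like clusters, the basal-like and hair follicle-like exceptions being clusters 11 and 1. Bmp7 lay under Ctrl in 8 of 8 basal-like clusters, and Bmpr1b in 5 of 5 suprabasal-like clusters. These counts reuse the same 4 libraries and are not repeated evidence.

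**Figure D3:**
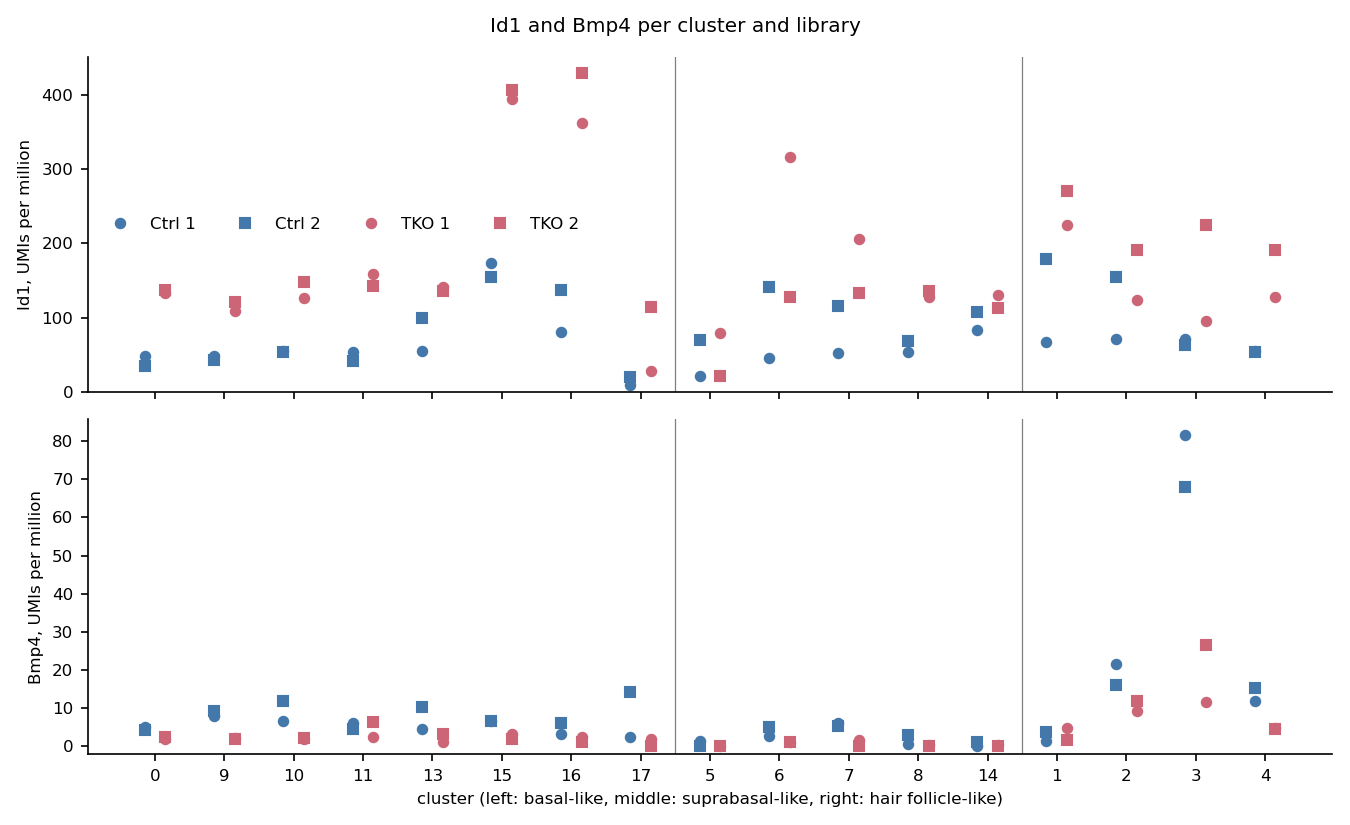
Id1 (top) and Bmp4 (bottom) in CPM for each cluster of the 3 classes, 1 point per library, Ctrl in blue and TKO in red. Id1 was higher in TKO across the basal-like clusters, and the Bmp4 signal was concentrated in cluster 3, where both TKO libraries lay at 26.6 CPM or lower.

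Outside the keratinocytes, 84 to 424 immune-like and 105 to 193 fibroblast-like cells per library carried the members at other levels. Bmp4 in fibroblast-like cells was 40.3 and 60.2 CPM in Ctrl and 21.4 and 15.1 CPM in TKO, whereas immune-like cells held at most 0.97 CPM. Id1 in fibroblast-like cells overlapped between genotypes, from 84.0 to 141 CPM, and in immune-like cells it lay between 1.84 and 14.6 CPM. Id2 was higher in immune-like cells, at 196 to 310 CPM, than in any of the 3 keratinocyte classes in every library. The 14 endothelial-like cells had Id1 at 129 to 1400 CPM and Id3 at 431 to 1105 CPM.

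Markers of these cell types were read within the keratinocyte classes. In basal-like cells the 7 fibroblast markers summed to 1393 and 1596 CPM in Ctrl and 1082 and 991 CPM in TKO, mostly Dcn and Postn, which moved with Bmp4. Col1a2, at 3.69 and 4.36 against 3.26 and 1.34 CPM, and Pdgfra, at 0.14 and 0.068 against 0.031 and 0 CPM, were also lower in both TKO libraries. Col1a1, Col3a1 and Lum overlapped between genotypes, Col1a1 lying at 1.49 to 3.36 CPM in these cells, against 10120 CPM in fibroblast-like cells. In hair follicle-like cells the fibroblast sum overlapped between genotypes, from 1677 to 1931 CPM, but 4 of the 7 genes, Col1a2, Postn, Lum and Pdgfra, were lower in both TKO libraries, as Bmp4 was. Col1a2 measured 35.1 and 53.8 CPM in Ctrl and 7.42 and 12.5 CPM in TKO in hair follicle-like cells, and Postn measured 171 and 155 CPM in Ctrl and 54.4 and 74.1 CPM in TKO. Lum there lay at 5.84 and 6.61 against 2.95 and 3.94 CPM, and Pdgfra at 0.27 and 0.48 against 0 and 0.094 CPM. Dcn, which made up most of the sum, was higher in both TKO libraries, at 1692 and 1455 CPM in Ctrl and 1707 and 1836 CPM in TKO. Col1a1, between 1.29 and 3.89 CPM, and Col3a1 overlapped between genotypes in these cells. The part of fibroblast RNA in the Bmp4 differences was not tested further. The 6 endothelial markers summed to 17.4 and 18.2 CPM in Ctrl and 37.5 and 25.2 CPM in TKO in basal-like cells, mostly Egfl7, and so moved with Id1. Kdr was at 0 and 0.034 CPM in Ctrl and 0.63 and 0.52 CPM in TKO, against 810 CPM in endothelial-like cells, and Cdh5 at 0 and 0.034 against 0.063 and 0.11 CPM, where endothelial-like cells held 1182 CPM. Pecam1, at 2.06 and 1.67 against 3.42 and 1.89 CPM, and Emcn, at 0.063 to 0.074 CPM in all libraries, made up the rest of the list with Tie1, which was at 0 in all 4 libraries. The part of endothelial RNA in the Id1 difference was not tested. The 7 immune markers also moved with Id1, at 2.57 and 4.05 CPM in Ctrl and 6.75 and 7.58 CPM in TKO in basal-like cells, and their part in the Id1 difference was not tested. Hair follicle-like cells held 11.1 and 14.3 CPM in Ctrl and 29.1 and 33.5 CPM in TKO, mostly Cd74.

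Other marker sums were also lower in both TKO libraries, as Bmp4 was, and their part in it was not tested. The 7 basal markers in basal-like cells themselves summed to 17271 and 19933 CPM in Ctrl and 13315 and 17074 CPM in TKO. In suprabasal-like cells the fibroblast sum was 235 and 359 against 220 and 105 CPM, and the hair follicle sum 114 and 162 against 97.3 and 102 CPM. The 8 suprabasal markers summed to 1001 and 805 CPM in Ctrl and 394 and 592 CPM in TKO in basal-like cells, and to 522 and 385 against 139 and 230 CPM in hair follicle-like cells. The 7 melanocyte markers in hair follicle-like cells summed to 24.0 and 37.4 CPM in Ctrl and 9.07 and 14.9 CPM in TKO, and the 7 basal markers there to 8016 and 7767 against 6290 and 6291 CPM. The 10 hair follicle markers summed to 706 and 683 CPM in Ctrl and 421 and 619 CPM in TKO in basal-like cells, and overlapped between genotypes in hair follicle-like cells, from 1732 to 2332 CPM.

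At a fixed depth of 5000 UMIs per cell, Id1 was found in more TKO cells. In basal-like cells 21.0% and 26.0% of Ctrl cells and 46.7% and 42.2% of TKO cells had at least 1 UMI of Id1. The exact 95% Clopper-Pearson intervals reached up to 28.2% in the Ctrl libraries and down to 38.9% in the TKO libraries, and they cover counting error only. Unthinned, the shares of the same cells were 48.3% and 49.3% in Ctrl and 77.6% and 77.7% in TKO. An exact permutation test, two-sided, of 2 against 2 libraries cannot go below 0.3333, which is what it gave (p = 0.333, a mean difference of 21.0 percentage points, higher in 2 of 2 TKO libraries). Immune-like cells, which give the background, had Id1 in 0.957% to 3.97% of cells at the same depth. Bmp4 was found in 9.12% and 9.11% of Ctrl and 4.80% and 5.51% of TKO hair follicle-like cells, against 0 of 84, 0 of 126, 2 of 282 (0.709%) and 0 of 418 immune-like cells in the same order of libraries. Taking 3 cells as the limit that a count of 0 allows, 0 of 418 allows a share of cells with a UMI of up to 0.718%, and 0 of 84 one of up to 3.57%.

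Because the knockout is mosaic, TKO cells were also split by at least 1 UMI, at 5000 UMIs per cell, of 5 genes found almost only in TKO: Npffr1, Gm11884, Col28a1, 1700030N03Rik and Gm42653. These transcripts marked 62.4% and 58.9% of basal-like TKO cells and 0.608% and 0.515% of basal-like Ctrl cells. The genes were chosen with earlier results of these data known, so the split is a description without a test. From all UMIs of the same cells, a reading added after seeing the data, Bmp4 in basal-like cells was 1.38 and 0.87 CPM with these transcripts (28 and 14 UMIs) and 3.81 and 4.31 CPM without them (44 and 47 UMIs). Ctrl cells without them held 6.24 and 7.62 CPM. At 5000 UMIs per cell the same TKO values were 1.68 and 0.77 against 8.38 and 3.3 CPM, from 2 to 15 UMIs. Bmp4 was therefore lower in cells with the transcripts in both TKO libraries, at either depth.

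In hair follicle-like cells Bmp4 showed the same order, with 6.56 and 7.93 CPM in TKO cells with the transcripts and 10.1 and 15.7 CPM in those without. Id1 in basal-like cells was also lower in TKO cells with the transcripts. It measured 179 and 153 CPM in TKO cells with the transcripts and 254 and 204 CPM in those without, against 66.8 and 90.1 CPM in Ctrl. Id1 was thus above Ctrl in both kinds of TKO cell and highest in those without the transcripts. The immediate early sum moved the same way, at 3561 and 1684 CPM with the transcripts and 5277 and 2085 CPM without them at 5000 UMIs per cell, and its part was not tested. The hair follicle-like Id1 values with and without them were 125 and 219 against 123 and 192 CPM. TKO cells without a UMI of these genes can be recombined or not, which these data do not separate.

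**Figure D4:**
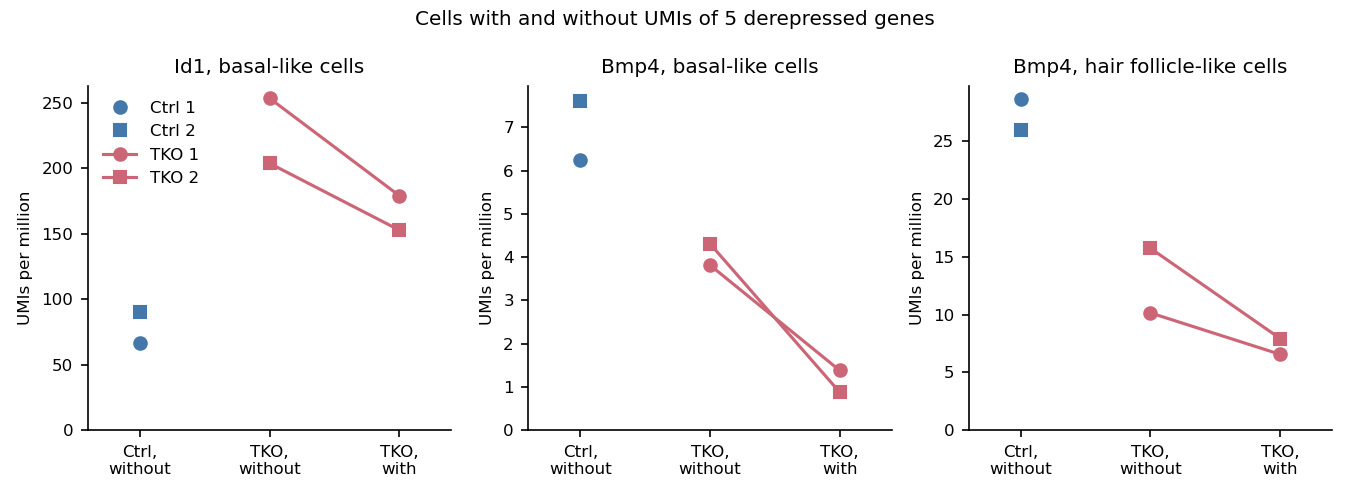
Id1 in basal-like cells and Bmp4 in basal-like and hair follicle-like cells, in CPM, for Ctrl cells without UMIs of the 5 derepressed genes and TKO cells without and with them, 1 point per library, lines joining the cells of a TKO library. Bmp4 was lower in TKO cells with these UMIs than in those without, and Id1 was lower in the former but above Ctrl in both.

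The other BMP pathway genes were read from a list of 46, again chosen with earlier results known, of which 33 were tested in basal-like, 29 in suprabasal-like and 33 in hair follicle-like cells. The calls were 1 raised and 3 lowered in basal-like cells, 0 and 2 in suprabasal-like cells, and 0 and 4 in hair follicle-like cells. Over all genes the shares raised and lowered were 8.65% and 4.89%, 1.34% and 0.576%, and 3.79% and 3.84% in the same order. The median log2 changes of the list were -0.24, -0.18 and -0.21, beside -0.02, 0.00 and -0.02 over all genes. Of the 8 further ligands only 2 or 3 a class could be tested and none was called by edgeR, and of the 4 signal transducers, Smad1, Smad4, Smad5 and Smad9, 3 or 4 were tested, all with negative log2 changes and none called. The 3 E proteins Tcf3, Tcf4 and Tcf12, the partners of Id proteins, were tested in all classes and not called.

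Among receptors and coreceptors, Acvr2b, a type II receptor of BMPs and activins, measured 23.8 and 23.4 CPM in Ctrl and 16.1 and 14.6 CPM in TKO in basal-like cells, a log2 fold change of -0.61 with an SE of 0.12 (adjusted p = 0.0235, edgeR). The adjusted p was 0.127 without Ctrl replicate 1 and 0.11 without Ctrl replicate 2. Rgma and Rgmb encode membrane-anchored BMP coreceptors. Rgma in hair follicle-like cells fell from 50.9 and 58.9 CPM to 24.6 and 27.1 CPM, a log2 fold change of -1.06 with an SE of 0.13 (adjusted p = 0.00681, edgeR), and it missed the threshold without TKO replicate 2 (adjusted p = 0.0778). Rgmb fell in suprabasal-like cells from 75.9 and 75.3 CPM to 38.3 and 38.8 CPM, a log2 fold change of -1.04 with an SE of 0.11 (adjusted p = 0.0216, edgeR), and missed it without Ctrl replicate 1 (adjusted p = 0.0657), the call holding in 14 of 16 alternative settings with an adjusted p of up to 0.0923. In basal-like cells Rgmb changed by -0.16, and the difference between the 2 classes, -0.91 (SE 0.11), passed the interaction test (edgeR adjusted p = 0.00891), though not without Ctrl replicate 1 (0.153) or Ctrl replicate 2 (0.14).

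Of the 17 secreted, membrane and intracellular inhibitors, 3 were lowered in at least 1 class and 1 was raised. Bambi, a decoy receptor without a kinase domain that is itself a BMP target, measured 10.6 and 12 CPM in Ctrl and 4.27 and 3.34 CPM in TKO in basal-like cells. The log2 fold change of Bambi was -1.56 with an SE of 0.20 (adjusted p = 0.00696, edgeR), a call kept in all 16 alternative settings. Bambi changed in hair follicle-like cells by -1.33 (SE 0.24, edgeR adjusted p = 0.024), and leaving out any library ended that call, with adjusted p-values of 0.0505 and 0.153 when Ctrl replicate 1 or 2 was dropped and 0.0925 and 0.108 when TKO replicate 1 or 2 was. That call held in 10 of 16 alternative settings, being lost also with no expression filter (0.065) and after thinning (0.0906). Bambi and Id1, both BMP targets, therefore moved in opposite directions in basal-like cells.

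Nbl1, a secreted BMP antagonist, was the pathway gene raised: 7.88 and 8.51 CPM in Ctrl and 17.8 and 26.2 CPM in TKO in basal-like cells, a log2 fold change of 1.44 with an SE of 0.22 (adjusted p = 0.0121, edgeR) kept in all 16 alternative settings. Fst, which encodes follistatin, a binding protein of activins and some BMPs, fell in hair follicle-like cells from 355 and 454 CPM to 223 and 218 CPM, a log2 fold change of -0.85 with an SE of 0.13 (adjusted p = 0.0142, edgeR). Sostdc1, a secreted inhibitor of BMP and Wnt signalling, fell there from 310 and 366 CPM to 216 and 198 CPM, a log2 fold change of -0.69 with an SE of 0.11 (adjusted p = 0.0176, edgeR). With Ctrl replicate 2, TKO replicate 1 or TKO replicate 2 dropped, the edgeR adjusted p was 0.0693, 0.062 and 0.131 for Fst and 0.121, 0.0561 and 0.138 for Sostdc1. Secreted inhibitors were thus called in both directions only across classes, Nbl1 raised in basal-like and Fst and Sostdc1 lowered in hair follicle-like cells.

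Sostdc1 also fell in suprabasal-like cells, from 51.1 and 54.9 CPM to 13.8 and 21.7 CPM, a log2 fold change of -1.62 with an SE of 0.24 (adjusted p = 0.0447, edgeR). This call held in 11 of 16 alternative settings, and the adjusted p reached 0.138 with cells of at least 3000 genes and 0.121 at the coarser clustering. The sum of suprabasal markers was also lower in TKO in this class, and its part in the Sostdc1 and Rgmb changes was not tested. The basal-like change of Sostdc1, -0.43, did not pass (edgeR adjusted p = 0.0716). With each library left out in turn it lay between -0.58 and -0.28. The difference between these 2 classes, -1.22 (SE 0.21), passed (edgeR adjusted p = 0.025), but not without Ctrl replicate 1 (0.254) or Ctrl replicate 2 (0.201). Among the targets Dlx3, a homeobox factor of epidermal differentiation and hair, measured 12.5 and 12.7 CPM in Ctrl and 6.75 and 8.36 CPM in TKO in basal-like cells, a log2 fold change of -0.73 with an SE of 0.18 (adjusted p = 0.0453, edgeR). The adjusted p of Dlx3 was 0.169 without Ctrl replicate 1, 0.176 without Ctrl replicate 2 and 0.0951 without TKO replicate 1.

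**Figure D5:**
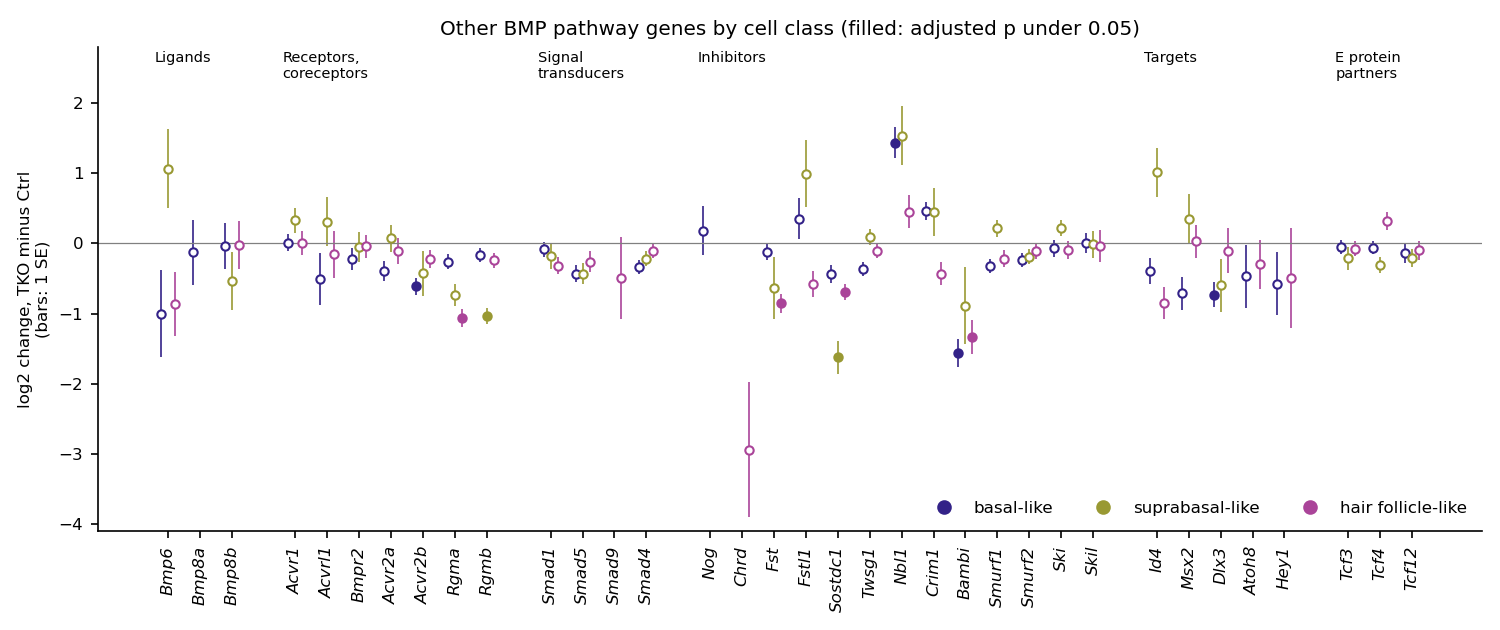
Log2 change, TKO minus Ctrl, of the other BMP pathway genes tested in at least 1 class, ordered by role, with bars of 1 SE and filled points for an adjusted p under 0.05. Bambi was lowered in basal-like and hair follicle-like cells, and Nbl1 was the raised gene of the list.

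The genes whose levels followed Id1 most closely over the 12 sums were Ube2d3, Magohb, Gm42546, Psmg2 and Psma1, with Pearson r of log2(CPM + 1) of 0.94, 0.94, 0.92, 0.91 and 0.91 among 13821 genes tested in all 3 classes. The 12 sums share 4 libraries, so r is a description. Id1 was higher in both TKO libraries of every class, so a raise in TKO was largely built into this choice of genes. Over all genes tested, 8.65% were raised in basal-like cells. Magohb and Psmg2 were raised in basal-like cells (edgeR adjusted p = 0.00925 and 0.0216), and Gm42546 was raised in all 3 classes, by 4.45, 4.73 and 3.39 on the log2 scale. The other two were not called in any class.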

How the data were processed

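The libraries were 10x 3′ libraries; the deposited files hold raw UMI counts per gene and cell barcode that the authors made with Cell Ranger 7.1.0 on GRCm39, per the file headers and the submitters' processing notes. The methods of the study name another version, and which annotation release was used and whether intronic reads were counted are not given in the sources used here. Intronic or antisense reads, if counted, would add to genes such as Bmpr1b that are long or overlap other genes; 7 of the 10 members overlap a gene on the opposite strand in GENCODE vM39.

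Cells with at least 2000 genes and under 10% mitochondrial UMIs were kept (11221 of 19789 barcodes), and 457 likely doublets were left out as the highest Scrublet scores, at a rate set by the number of barcodes, since its automatic threshold marked 2 cells in each Ctrl library. Library pairs shared 2 to 12 barcodes. Keratinocytes were clustered with scanpy 1.11.5 after a Harmony correction over libraries, without the members and without 1387 genes that differed between genotypes, and clusters were named from fixed markers. UMIs were summed per class and library and tested with edgeR 4.0.16 in R 4.3.3 (quasi-likelihood, TMM, filterByExpr, genotype as the only term, Benjamini-Hochberg over all genes), with DESeq2 1.42.0 as an alternative. The interaction fit used library, class and class by genotype. Shares used exact Clopper-Pearson intervals and exact permutation tests in scipy 1.17.1. The code was tested on simulated data.

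The text names all 10 members, the pathway genes called in a class, and the 5 genes most like Id1. The members and lists were chosen with earlier results of these data known. No label ties a library to a separate litter, so p-values measure the spread between these libraries. Leaving out stress-led clusters, the crossed pairing and the split read from all UMIs were chosen after seeing the data.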

Additional observations from a re-analysis of the deposited data

Results flagged for a closer look

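The genotype effect differed between suprabasal-like and basal-like cells for 4 of the 35 other BMP pathway genes tested, by the interaction test of edgeR, which called 2.84% of all genes. The difference was -0.91 on the log2 scale (SE 0.11, adjusted p = 0.00891) for Rgmb and -1.22 (SE 0.21, adjusted p = 0.025) for Sostdc1. Smurf1, a ubiquitin ligase of BMP Smads, and Id4, a further Id gene, were chosen after their values were seen, with differences of 0.50 (SE 0.11, edgeR adjusted p = 0.0461) and 1.38 (SE 0.30, edgeR adjusted p = 0.0458).

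Smurf1 measured 56.1 and 57.2 CPM in Ctrl and 44.3 and 45.4 CPM in TKO in basal-like cells, and 46.9 and 49.0 CPM in Ctrl and 56.3 and 60.1 CPM in TKO in suprabasal-like cells. Id4 measured 9.27 and 11.4 CPM in Ctrl and 8.41 and 7.28 CPM in TKO in basal-like cells, and 2.49 and 4.79 CPM in Ctrl and 7.75 and 7.33 CPM in TKO in suprabasal-like cells. Neither gene passed within a class.

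All 4 differences missed the threshold without Ctrl replicate 1, with edgeR adjusted p-values of 0.153 for Rgmb, 0.254 for Sostdc1, 0.286 for Smurf1 and 0.362 for Id4. Without Ctrl replicate 2 these were 0.14, 0.201, 0.254 and 0.188. No gene passed this contrast without either Ctrl library. Smurf1 and Id4 also missed it without TKO replicate 1 (0.151 and 0.0737) and without TKO replicate 2 (0.174 and 0.0783).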

How the results depend on the processing

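The 4 calls on members kept their direction under all 16 alternatives, and 17 of the 30 changes of members by class did so; the log2 changes that turned are given below, and the cause was not tested. Bmp4 counts were low, and its basal-like call was lost after thinning and its hair follicle-like call with no expression filter or without Ctrl replicate 2 or TKO replicate 2. With 2 libraries a group the permutation test cannot go below 0.3333.

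The basal-like counts of 2348 genes and 3 members called became 1272 and 1 after thinning to 5000 UMIs. In suprabasal-like cells 280 genes and 0 members became 2030 and 4 with no expression filter, 483 and 1 with uncorrected components, and 738 and 1 with DESeq2; 145 genes were called with at least 3000 genes per cell, and 1 member with doublets kept. In hair follicle-like cells 1204 genes and 1 member became 458 and 0 with no expression filter and 763 and 2 after thinning; 2021 genes were called with doublets kept and 2210 at Leiden resolution 2, and 2 members with uncorrected components, at Leiden resolution 0.5 and with DESeq2. The 496 genes whose effect differed between suprabasal-like and basal-like cells became 314 with scaling by total UMIs, 1732 with no filter, 254 after thinning, 233 with doublets kept, 1156 with uncorrected components and 283 at Leiden resolution 2, and the 0 members 4 with no filter and 3 with uncorrected components. The 86 genes for hair follicle-like against basal-like cells became 737 with no filter, 439 with uncorrected components, 143 without stress-led clusters and 160 with DESeq2, and the 0 members 2 with no filter.

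With 1 library left out the genes called ran from 855 to 2650 (basal-like), 228 to 621 (suprabasal-like), 145 to 637 (hair follicle-like), 0 to 367 (suprabasal-like against basal-like) and 0 to 171 (hair follicle-like against basal-like), and the members from 2 to 3, 0 to 1, 0 to 1, 0 to 1 and 0 to 1. The lone library left in a group was assumed to vary like the other group.

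Replicate numbers did not pair the libraries: deviations of same-numbered libraries correlated at -0.17, -0.29 and -0.11 in basal-like, suprabasal-like and hair follicle-like cells. Per the study, both sexes were present in each group of its sequencing experiments. The sample titles do not name the sex of a library, so sex was not a term, and a pairing by sex was not tested. The replicate block called 1669, 116 and 980 genes and 2, 0 and 2 members. It ended the calls on Bmp7 (edgeR adjusted p = 0.11), Acvr2b (0.0568) and Dlx3 (0.0638) in basal-like cells and on Rgmb (0.0923) and Sostdc1 (0.0659) in suprabasal-like cells. It added calls on Id1 (0.00801) and Id4 (0.0399) in hair follicle-like cells. Crossed numbers, a pairing added after seeing the data, called 3425, 1639 and 1516 genes and 5, 4 and 1 members. The interaction fits hold library as a term, so no further block was used.

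Log2 changes turned as follows. Without stress-led clusters basal-like Bmp2 was 0.0019 and Fst 0.016. Suprabasal-like Bmpr1a was -0.024 with no filter, -0.0034 at Leiden resolution 0.5 and -0.0029 with DESeq2. Hair follicle-like Id2 was 0.0050 after thinning and 0.077 at Leiden resolution 0.5. Hair follicle-like Bmpr1b was 0.18 with doublets kept, 0.11 with 3000 genes, 0.036 with uncorrected components, 0.070 at Leiden resolution 0.5 and 0.019 at resolution 2. After thinning, hair follicle-like Smad7 was 0.27, Acvr2b 0.095 and Dlx3 0.013. The hair follicle-like minus basal-like difference of Bmp4 was -0.17 with doublets kept, -0.19 with 3000 genes and -0.12 at Leiden resolution 2.

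With 1 library left out, ranges that crossed 0 were, in basal-like cells, -0.34 to 0.17 for Bmp2, -0.23 to 0.14 for Bmpr1a, -0.11 to 0.50 for Id3 and -0.41 to 0.32 for Smad7. In suprabasal-like cells they were -1.40 to 0.19 for Bmp2, -0.15 to 0.14 for Bmpr1a, -1.12 to 0.029 for Fst, -2.22 to 0.092 for Id2, -1.59 to 0.0050 for Id3 and -0.91 to 1.28 for Smad6. In hair follicle-like cells they were -0.27 to 0.15 for Bmpr1b, -0.67 to 0.29 for Dlx3, -0.12 to 0.10 for Id2, -0.42 to 0.18 for Smad6 and -0.27 to 0.21 for Smad7. Differences between classes ran from -0.18 to 0.47 (hair follicle-like) and -1.77 to 0.13 (suprabasal-like) for Bmp4 and from -0.85 to 0.11 (hair follicle-like) for Id1.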
